A study of Mus musculus with 6 samples.

Results

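The 39 protein-coding genes of the 4 mouse Hox clusters were taken from a table of 23420 genes measured in whole mouse lungs collected at E11.5 (embryonic day, the age in days after conception), by keeping every row whose gene symbol is Hoxa, Hoxb, Hoxc or Hoxd followed by a number. They comprised 11 genes of HoxA (GRCm38, chr6:52155590-52260880), 10 of HoxB (chr11:96194316-96368256), 9 of HoxC (chr15:102921103-103036852) and 9 of HoxD (chr2:74668310-74765142). The study asked how lungs without mTOR complex 1 (mTORC1) in the epithelium differ in gene expression from control lungs. Mutant lungs were Rptor f/f; Shh Cre/+, in which both floxed copies of Rptor, the gene for the mTORC1 subunit RAPTOR, can be recombined. Control lungs were Rptor f/+; Shh Cre/+ and therefore also carried Shh Cre and 1 floxed allele. Total RNA was sequenced from 3 pools for each genotype, and lungs of several embryos were combined in each pool. The Cre gene is driven from the Shh locus, which is active in the lung epithelium, whereas the libraries held all the cells of the lung.

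Hox genes encode homeodomain transcription factors that give positional identity along the body axis. Within a cluster, the genes are numbered from the 3′ end, and low-numbered genes are in general used in anterior regions and high-numbered genes in posterior ones. Genes with the same number in different clusters are called paralogs and arose by duplication of a single ancestral cluster. In the developing lung, Hox transcripts are known chiefly from the mesenchyme, and Hoxa5 is required there for normal morphogenesis of the trachea and lung. HOX proteins bind DNA together with cofactors of the PBX and MEIS families. Polycomb proteins keep clusters silent where they are not used.

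Values are normalized counts, which are reads divided by a size factor for each library. Depth was even, with 20197642 to 21276090 reads recovered in the 5 libraries for which the file's step was accepted, and normalized totals of 20705058 to 20865998 over all 6. Lung identity was seen in all pools: Nkx2-1, the transcription factor that marks lung epithelium, lay at 1977 to 2686, and Tbx4, a factor of lung mesenchyme, at 3045 to 4491 normalized counts. Rptor itself was at 2126, 2193 and 2279 in the control pools and 2023, 2137 and 2148 in the mutant pools (log2 fold change -0.06 ± 0.05 SE, unadjusted p = 0.193, adjusted p = 0.584), so the groups overlapped for the targeted gene in whole lungs. The labels did not say which exons the counts cover, and reads outside a deleted part do not report the deletion.

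Promoter sequences are given for 4 of the Hox genes compared below. Promoter windows of 300 bases, from 250 bases before to 50 bases after the start, were matched by symbol in RefSeq (GRCm38.p6) for 22 of the 39 genes, with 24 windows in all. Hoxa2 (chr6:52164782-52165081, minus strand), Hoxa5 (chr6:52204538-52204837, minus strand) and Hoxb4 (chr11:96318017-96318316, plus strand) are shown because the lowest mutant pool exceeded the highest control pool for each. Of the Hox genes with a mean of at least 500, Hoxa3 and Hoxa4 also met this condition, but no window was matched for them. Hoxd4 (chr2:74721728-74722027, plus strand) is shown because it varied most between control pools among the Hox genes with a mean of at least 10. Capitals mark AGGTCA or its reverse complement TGACCT, the half-site read by retinoic acid receptors, TGATNNAT or ATNNATCA, a form of the PBX-HOX site, and TTTATGG or CCATAAA, a caudal site.
Hoxa2: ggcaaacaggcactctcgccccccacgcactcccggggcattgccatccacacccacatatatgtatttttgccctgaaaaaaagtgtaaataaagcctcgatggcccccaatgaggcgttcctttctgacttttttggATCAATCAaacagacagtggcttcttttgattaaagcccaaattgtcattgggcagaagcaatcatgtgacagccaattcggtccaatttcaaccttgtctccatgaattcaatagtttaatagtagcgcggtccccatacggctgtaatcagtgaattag
Hoxa5: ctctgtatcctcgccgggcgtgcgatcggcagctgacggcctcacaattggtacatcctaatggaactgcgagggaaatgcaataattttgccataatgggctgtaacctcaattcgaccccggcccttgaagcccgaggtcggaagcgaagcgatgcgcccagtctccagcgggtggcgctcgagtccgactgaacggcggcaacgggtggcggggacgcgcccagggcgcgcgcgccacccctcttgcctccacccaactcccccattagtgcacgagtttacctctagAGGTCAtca
Hoxb4: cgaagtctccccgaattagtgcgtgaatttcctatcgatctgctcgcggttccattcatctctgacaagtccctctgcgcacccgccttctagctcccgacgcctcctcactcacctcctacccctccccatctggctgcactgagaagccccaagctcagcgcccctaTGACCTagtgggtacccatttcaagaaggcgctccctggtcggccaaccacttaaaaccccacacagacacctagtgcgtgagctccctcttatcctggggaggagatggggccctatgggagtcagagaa
Hoxd4: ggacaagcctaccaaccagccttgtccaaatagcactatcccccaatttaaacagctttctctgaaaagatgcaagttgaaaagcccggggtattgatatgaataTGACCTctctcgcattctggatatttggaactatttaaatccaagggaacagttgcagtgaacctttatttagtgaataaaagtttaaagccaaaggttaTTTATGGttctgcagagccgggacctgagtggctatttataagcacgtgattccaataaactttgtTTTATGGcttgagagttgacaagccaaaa
The Hoxa2 window held 1 PBX-HOX match, the Hoxa5 and Hoxb4 windows 1 half-site each, and the Hoxd4 window 1 half-site and 2 caudal matches. Searched on both strands, the half-site was in 7 of the 24 Hox windows and in 16.3% of all 32851 promoter windows, the PBX-HOX site in 4 and in 8.85%, and the caudal site in 1 and in 2.75%. GC content ranged from 39.7% in the Hoxd4 window to 61.7% in the Hoxa5 window. A match describes letters in a window and not a bound site.

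The clusters also contain the genes of 2 microRNA families, which are known to repress Hox transcripts, and the mature sequences are given with the seed, bases 2 to 8, in capitals.
miR-10a-5p: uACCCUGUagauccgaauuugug
miR-10b-5p: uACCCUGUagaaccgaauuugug
miR-196a-5p: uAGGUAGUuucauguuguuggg
miR-196b-5p: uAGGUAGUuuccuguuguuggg
Both miR-10 forms share one seed, and both miR-196 forms share another. Mir10a, in HoxB beside Hoxb4, was at 3.93, 8.26 and 7.95 in the control pools and 7.15, 10.8 and 8.83 in the mutant pools, whereas Mir10b in HoxD, Mir196b in HoxA and Mir196a-2 in HoxC were listed at 0 in every pool. Mir196a-1, the miR-196 gene of HoxB, was at 0, 2.07 and 0 in the control pools and 1.02, 2.94 and 0.982 in the mutant pools. These counts are reads over the short gene in a total RNA library and do not measure the mature microRNA.

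To see which Hox genes the lung used, levels were compared per kilobase of annotated exon. Hox expression was almost entirely that of the HoxA and HoxB clusters. HoxA contributed 45.9% ± 1.39 and HoxB 49.6% ± 1.54 of the summed level per kilobase (SD over 6 pools), whereas HoxC contributed 3.58% ± 1.18 and HoxD 0.905% ± 0.365. Paralog groups 2 to 6 made up 95.3% ± 0.312 of this sum and groups 9 to 13 only 0.231% ± 0.0502. Group 5 alone held 38.0% ± 2.40 and group 4 held 23.5% ± 1.97, followed by group 3 with 12.3% ± 1.38, group 2 with 11.1% ± 0.468 and group 6 with 10.4% ± 1.5. The last 3 of these groups lay within about their spread of each other. The balance of clusters and the order of groups depended on the division by length. In normalized counts without it, HoxA held 36.0% ± 1.37 and HoxB 58.9% ± 1.49. Group 3 then held 22.3% ± 2.05, group 4 19.3% ± 1.47, group 2 12.1% ± 0.311 and group 6 7.49% ± 1.12, with group 5 still first.

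**Figure D1:**
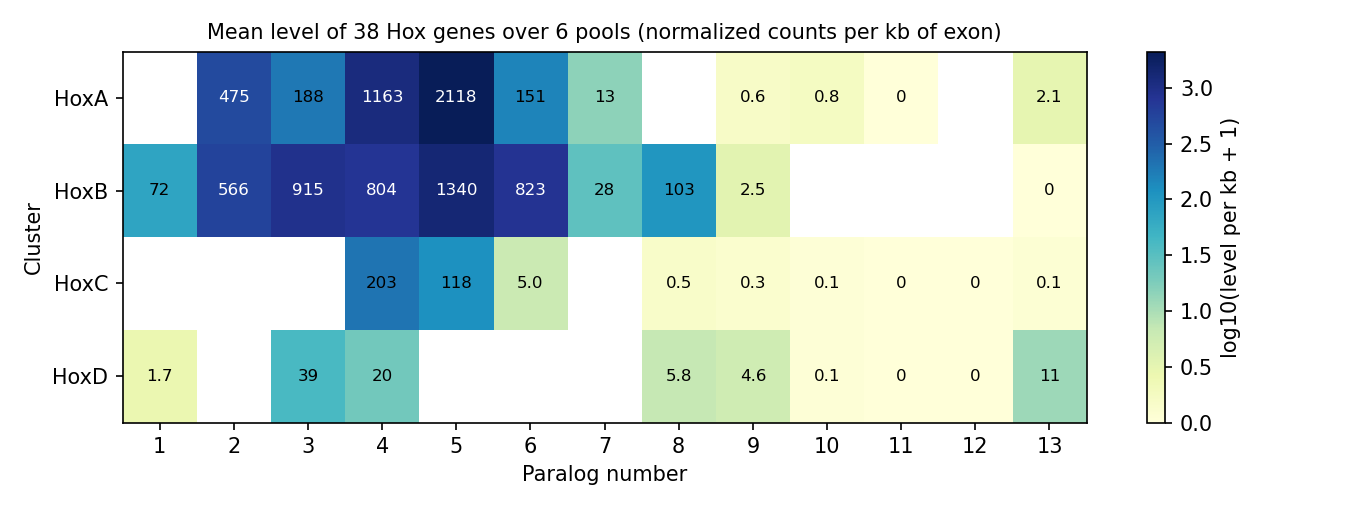
Mean level of 38 Hox genes over the 6 pools, in normalized counts per kilobase of exon, by cluster (rows) and paralog number (columns); colour gives log10(level + 1), and white cells are positions with no gene or with a gene that is not shown. Levels are highest in HoxA and HoxB between numbers 2 and 6, with Hoxa5 at 2118 and Hoxb5 at 1340.

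The order of single genes in control lungs followed the same pattern. Hoxa5 had the highest level per kilobase, 1881 ± 302 (SD, n = 3), ahead of its paralog Hoxb5 at 1222 ± 316 and of Hoxa4 at 1051 ± 20.6. Hoxb5 and Hoxa4 did not differ beyond the spread of Hoxb5. Next on this scale came Hoxb3 at 891 ± 44.1, Hoxb6 at 769 ± 232 and Hoxb4 at 756 ± 42.5, which were within the spread of Hoxb6, and then Hoxb2 at 537 ± 46.8 and Hoxa2 at 443 ± 28.3. A lower set held Hoxc4 at 208 ± 49.3, Hoxa3 at 171 ± 5.36, Hoxc5 at 139 ± 48.6 and Hoxa6 at 135 ± 52.3, whose neighbours in this order overlapped. The third paralog of group 5, Hoxc5, was thus far below Hoxa5 and Hoxb5 on this scale. Gene models decide part of this order: per kilobase of the principal transcript, the 6-pool mean of Hoxa3 was 435 in place of 188, that of Hoxb2 1213 in place of 566, that of Hoxb3 1531 in place of 915, and that of Hoxb5 1970.1 in place of 1340.0, while Hoxa5 stayed at 2118. Hoxb2 then lay above Hoxa4 (1163), Hoxb6 (985) and Hoxb4 (804) on this scale.

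Of the 23 genes of groups 1 to 8, all passed the filter for testing (a value of 1 or more in 3 or more pools), and of the 16 genes of groups 9 to 13 only 6 did. Hoxa11, Hoxb13, Hoxc11, Hoxc12, Hoxd11 and Hoxd12 were listed at 0 in all 6 pools. A count of 0 can still arise where the expected number of reads in a library is as high as about 3. Hoxc9, Hoxc10, Hoxc13 and Hoxd10 reached at most 2.04 in any pool. Among posterior genes, the highest per kilobase in each cluster were Hoxa13, Hoxb9, Hoxc9 and Hoxd13. Hoxd13, known for its role in digits and in the genital tubercle, was at 19.6, 25.8 and 17.9 in the control pools and 36.8, 27.5 and 32.4 in the mutant pools. Hoxa13 was at 4.91, 5.17 and 3.98 in the control pools and 7.15, 3.92 and 5.89 in the mutant pools. Hoxc9 was at 0 in the control pools and at 2.04, 0 and 1.96 in the mutant pools. Hoxb9 was at 8.84, 6.20 and 3.98 in the control pools and 7.15, 6.86 and 4.91 in the mutant pools. Hoxd13 was the only gene of groups 9 to 13 with a mean above 10, and its values in the 2 genotypes did not overlap. Hoxa9 was at 1.96, 2.07 and 1.99 in the control pools and 4.09, 4.90 and 3.93 in the mutant pools, a posterior gene near the limit of detection that also did not overlap.

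Mutant and control lungs were then compared gene by gene, with limma on log2(normalized count + 1) over the 17168 genes that passed the filter, 29 of them Hox genes. No Hox gene passed an adjusted p of 0.05, where 0.501% of all genes did. At an unadjusted p under 0.05, 8 of the 29 Hox genes differed (27.6%, against 13.6% of all genes), of which 6 were higher in mutant lungs (20.7%, against 6.67%) and 2 were lower (6.9%, against 6.89%). The groups did not overlap for 9 Hox genes (31.0%, against 20.2%), 7 of them higher (24.1%, against 9.77%) and 2 lower (6.9%, against 10.5%). A log2 fold change above 0 was found for 20 of the 29 (69.0%, against 49.5%). These were mostly genes of HoxA and HoxB: 9 of 10 tested HoxA genes and 8 of 9 HoxB genes had a log2 fold change above 0, against 3 of 6 for HoxD and 0 of 4 for HoxC. The median log2 fold change was 0.27 in HoxA, 0.15 in HoxB, -0.39 in HoxC and 0.0062 in HoxD, beside -0.0021 over all tested genes. edgeR on the recovered reads of 5 libraries, without control pool 3, gave 3 of 23 tested Hox genes an adjusted p under 0.05. These were Hoxa3, Hoxa4 and Hoxa5, all higher, and 3.68% of all genes passed there. In limma without control pool 3, the unadjusted counts were 5 higher and 0 lower of 29 Hox genes, against 16.9% of all genes. Hoxa3 (adjusted p = 0.0129) and Hoxa4 (adjusted p = 0.0105) passed, as did 2.75% of all genes. Without control pool 2, Hoxc5 passed as lower (adjusted p = 0.0457), as did 0.870% of all genes in either direction. The unadjusted counts were then 11 higher and 5 lower of 28 Hox genes, against 16.1% of all genes. In whole lungs, fewer cells of a type and less RNA per cell cannot be told apart.

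**Figure D2:**
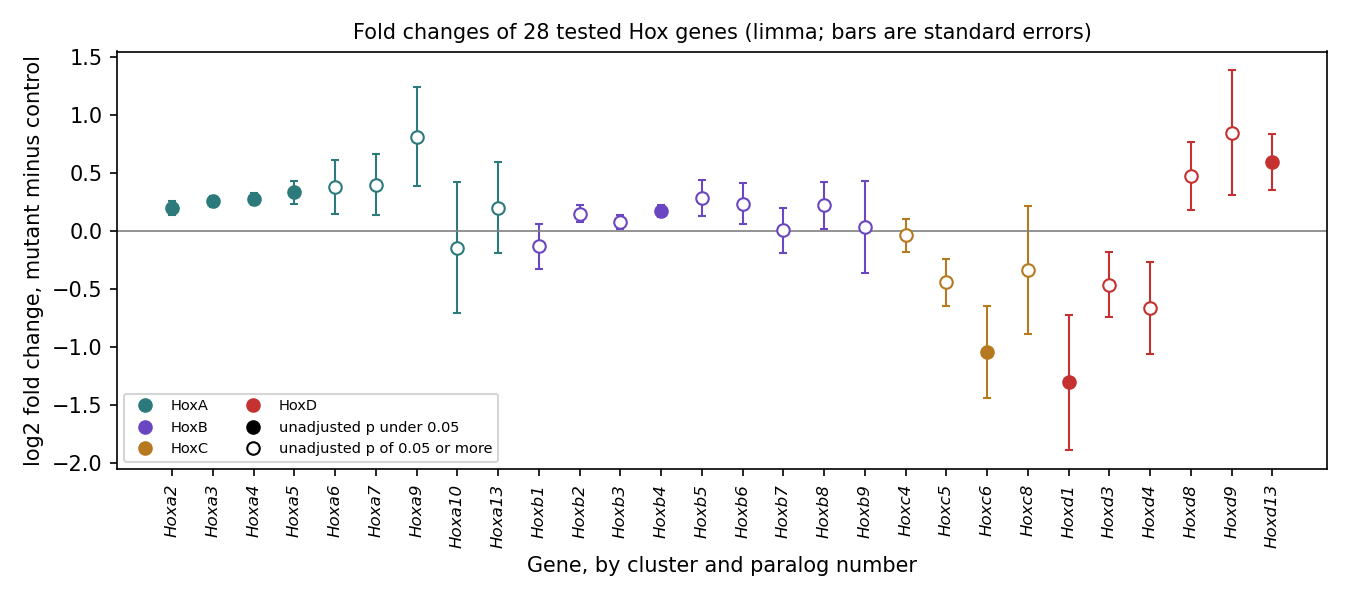
log2 fold change (mutant minus control) of 28 of the 29 tested Hox genes from limma, ordered by cluster and paralog number; bars are standard errors and filled points have an unadjusted p under 0.05. HoxA and HoxB points lie mostly above 0, from Hoxa2 to Hoxa5 with small errors, and the 4 HoxC points lie below 0.

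The most even difference was in adjacent genes of HoxA. Hoxa4, the neighbour of Hoxa5 and known from lung mesenchyme, was at 1669, 1646 and 1711 in the control pools and 1904, 2083 and 2108 in the mutant pools (log2 fold change 0.28 ± 0.05 SE, unadjusted p = 2.63e-04, adjusted p = 0.0504). Hoxa3, a regulator of pharyngeal organs, was at 992, 1039 and 1054 in the control pools and 1222, 1245 and 1215 in the mutant pools (log2 fold change 0.26 ± 0.05 SE, unadjusted p = 3.65e-04, adjusted p = 0.0596). Every mutant pool was above every control pool for both genes, with a difference of means larger than the range within either genotype, and both missed the adjusted threshold narrowly. Hoxa2, a selector gene of the second branchial arch, was at 842, 744 and 773 in the control pools and 912, 896 and 890.2 in the mutant pools (log2 fold change 0.20 ± 0.06 SE, unadjusted p = 0.00841, adjusted p = 0.192). Hoxa5 was at 3697, 3996 and 2900.4 in the control pools and 4169.8, 4698 and 4392 in the mutant pools (log2 fold change 0.34 ± 0.10 SE, unadjusted p = 0.00694, adjusted p = 0.179). The control pools of Hoxa5 were spread more widely than its mutant pools, with control pool 3 far below the other two, and without that pool its log2 fold change was 0.20. On the other side of Hoxa5, Hoxa6 was at 112, 166 and 75.5 in the control pools and 137, 158 and 144 in the mutant pools (log2 fold change 0.38), and here the genotypes overlapped. The remaining tested HoxA genes had small counts, with log2 fold changes of 0.40 for Hoxa7 and -0.15 for Hoxa10. Exons of Hoxa3 and Hoxa4 overlap transcripts on the opposite strand over 25.4% and 16% of their length, and whether the counting used strand was not stated.

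In HoxB, the difference was smaller. Hoxb4, a gene of the hindbrain and neck vertebrae, was at 2065, 1880.2 and 1872 in the control pools and 2086, 2229.6 and 2246 in the mutant pools (log2 fold change 0.17 ± 0.05 SE, unadjusted p = 0.00813, adjusted p = 0.191). The highest control pool and the lowest mutant pool of Hoxb4 almost met. Hoxb2, a hindbrain gene, was at 1953, 1978 and 1684 in the control pools and 1962, 2301 and 1973 in the mutant pools (log2 fold change 0.15 ± 0.0775 SE). Hoxb3 was at 3769.8, 3607 and 3981 in the control pools and 3725, 4334 and 3917 in the mutant pools (log2 fold change 0.07 ± 0.0596 SE), and 52.9% of its exon length is overlapped by an antisense transcript. Neither gene separated the genotypes. Hoxb5, a gene implicated in lung branching, was at 3573, 4187 and 2451 in the control pools and 3755, 4389 and 4045 in the mutant pools (log2 fold change 0.29 ± 0.15 SE, unadjusted p = 0.0908, adjusted p = 0.446). Hoxb6 was at 1568, 1935 and 1029.7 in the control pools and 1608, 1862 and 1697 in the mutant pools (log2 fold change 0.23 ± 0.177 SE). For Hoxb5 and Hoxb6 the control pools covered the range of the mutant pools or nearly so, and without control pool 3 the log2 fold changes were 0.068 and -0.019. Hoxb1, Hoxb7, Hoxb8 and Hoxb9 had log2 fold changes between -0.13 and 0.22, none with an unadjusted p under 0.05.

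In HoxC and at the 3′ end of HoxD, fitted values were below 0, and those of Hoxc4, Hoxc5, Hoxc6, Hoxd3 and Hoxd4 depended in size or sign on control pool 3. Hoxc4 was at 538, 405 and 658 in the control pools and 509, 542 and 480.0 in the mutant pools (log2 fold change -0.04 ± 0.14 SE, unadjusted p = 0.795, adjusted p = 0.933). Hoxc5 was at 413, 287 and 586 in the control pools and 289, 306 and 312 in the mutant pools (log2 fold change -0.44 ± 0.20 SE, unadjusted p = 0.0507, adjusted p = 0.369). Hoxc6 was at 13.8, 10.3 and 26.8 in the control pools and 5.11, 8.82 and 7.85 in the mutant pools (log2 fold change -1.04 ± 0.40 SE, unadjusted p = 0.0254, adjusted p = 0.284), a low gene with no overlap between genotypes. Hoxc8, with at most 2.95 in any pool, had a log2 fold change of -0.34. Without control pool 3, the log2 fold change was 0.13 for Hoxc4, -0.19 for Hoxc5 (adjusted p = 0.495), -0.67 for Hoxc6, -0.15 for Hoxd3 and -0.24 for Hoxd4. Hoxd3, which acts with Hoxa3 in neck vertebrae, was at 182, 118 and 278 in the control pools and 153, 97.1 and 152 in the mutant pools (log2 fold change -0.46 ± 0.280 SE). Hoxd4 was at 69.7, 35.1 and 122 in the control pools and 47.0, 28.4 and 55.0 in the mutant pools (log2 fold change -0.66 ± 0.399 SE). Hoxd3 and Hoxd4 share 62.3% and 52.3% of their exon length on the same strand with each other or a nearby transcript, so their counts are uncertain as separate values. Hoxd1 was at 4.91, 5.17 and 3.98 in the control pools and 2.04, 0 and 2.94 in the mutant pools (log2 fold change -1.31 ± 0.58 SE, unadjusted p = 0.0489, adjusted p = 0.366), at the edge of detection. Hoxd13 leaned up with a log2 fold change of 0.59 ± 0.24 SE, unadjusted p = 0.0346, adjusted p = 0.321, and Hoxd8 and Hoxd9 had values of 0.48 and 0.85 with overlap between the genotypes.

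**Figure D3:**
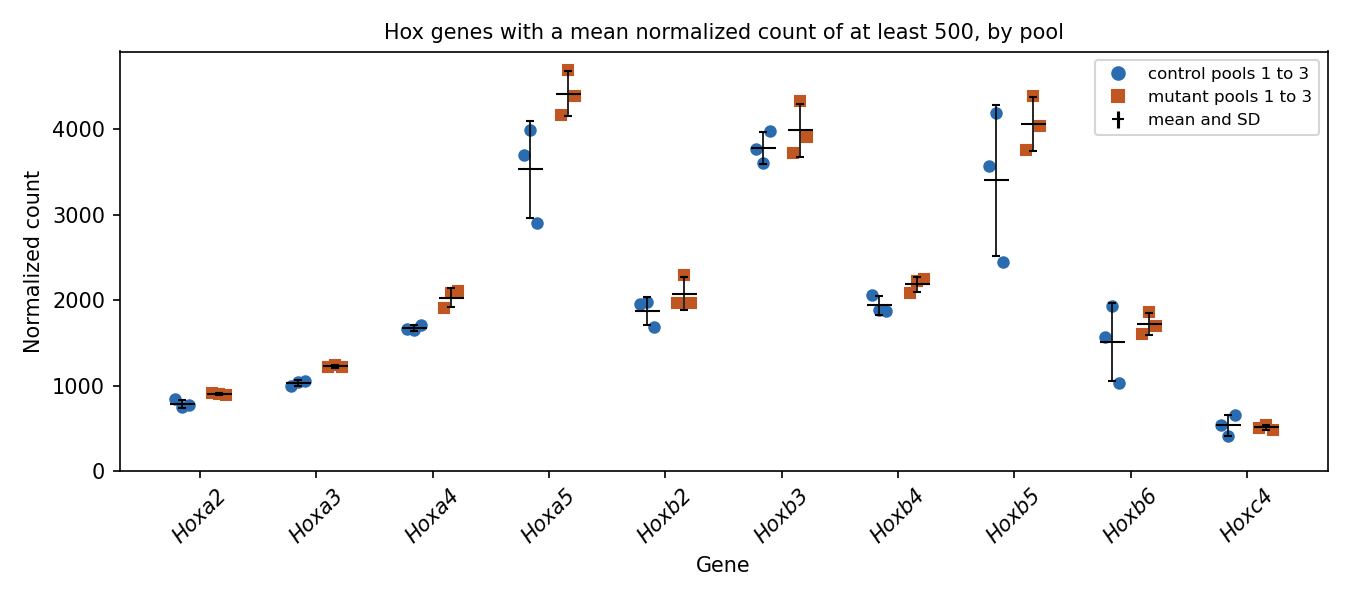
Normalized counts of the 10 Hox genes with a mean of at least 500, by pool (points, 3 control and 3 mutant), with the mean and SD in black; the axis starts at 0. Mutant pools lie above control pools for Hoxa2, Hoxa3, Hoxa4, Hoxa5 and Hoxb4, while control pool 3 is far below the other control pools for Hoxa5, Hoxb5 and Hoxb6.

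Within group 5, the ratio of paralogs in a pool does not depend on its size factor. The log2 ratio of Hoxa5 to Hoxb5 was 0.0748 ± 0.157 in control pools and 0.123 ± 0.0266 in mutant pools (SD, n = 3; exact permutation test, two-sided, p = 0.700, where 0.1 is the smallest possible). The log2 ratio of Hoxa5 to Hoxc5 was 3.09 ± 0.749 in control pools and 3.87 ± 0.0651 in mutant pools, a difference of 0.78 (exact permutation test, two-sided, p = 0.1). This difference was 0.39 without control pool 3 and 1.13 without control pool 2. These 2 ratios were the only ones tested. The share of HoxA in the summed level per kilobase was 44.7% ± 0.145 in control pools and 47.1% ± 0.507 in mutant pools, and that of HoxC 4.16% ± 1.56 and 3.0% ± 0.108. The 2 shares were given as descriptions with no test.

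Differences between pools of the same genotype were as large as those between genotypes for many Hox genes. Among the 22 Hox genes with a mean of at least 10, the SD of log2(value + 1) was larger in control than in mutant pools for 18, that is 81.8%, against 63.9% of the 14584 genes of this level. The median SD for the Hox genes was 0.363 in control and 0.112 in mutant pools, against 0.0996 and 0.0713 over all genes. The coefficient of variation in control pools was 16% for Hoxa5, 25.9% for Hoxb5, 30.1% for Hoxb6 and 57.9% for Hoxd4, and only 1.96% for Hoxa4 and 3.13% for Hoxa3.

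For many Hox genes, control pools 2 and 3 were the extremes, in 2 opposite directions. These were also the 2 most common orders of the control pools over all genes, so the orders are not particular to Hox genes. Hoxa5, Hoxa6, Hoxb2, Hoxb5, Hoxb6, Hoxb8 and Hoxd13 ran from control 2 through control 1 down to control 3 (7 of 22 Hox genes, and 26.3% of all genes). Hoxa4, Hoxb1, Hoxb3, Hoxc4, Hoxc5, Hoxc6, Hoxd3 and Hoxd4 ran the reverse way (8 of 22, and 24.1% of all genes). The ratio of control 3 to control 2 was 0.45 for Hoxa6, 0.53 for Hoxb6, 0.59 for Hoxb5 and 0.73 for Hoxa5, but 3.48 for Hoxd4, 2.60 for Hoxc6, 2.36 for Hoxd3, 2.04 for Hoxc5, 1.82 for Hoxb1 and 1.62 for Hoxc4. The genes of groups 5, 6 and 8 in HoxA and HoxB were thus low where group 3 to 6 genes of HoxC and HoxD were high. This pattern was noticed after the values were seen and carries no test. In the mutant pools, 11 of the 22 genes ran from mutant 2 through mutant 3 to mutant 1, against 21.4% of all genes.

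**Figure D4:**
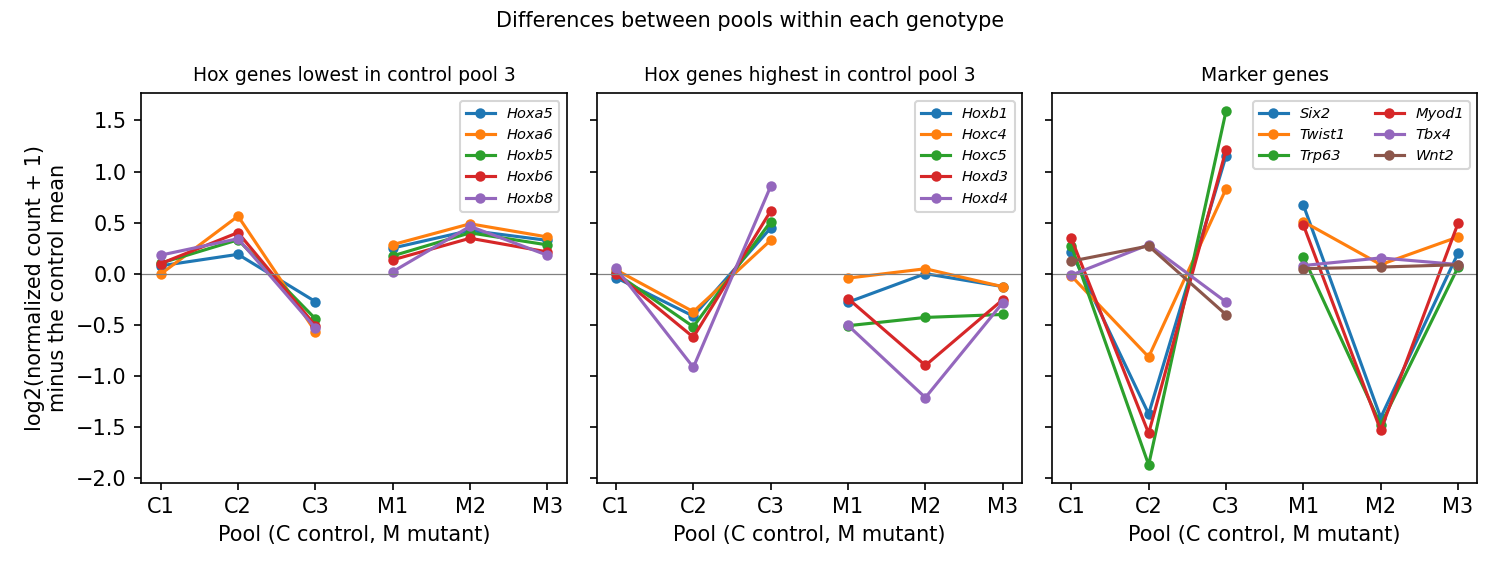
log2(normalized count + 1) minus the control mean in each pool, for Hox genes lowest in control pool 3 (left), Hox genes highest there (middle) and marker genes (right); lines join pools of 1 genotype only to guide the eye. Among controls, Hoxd4, Six2 and the mesenchymal marker Twist1 are lowest in control 2 and highest in control 3, while Hoxb6 and Tbx4 run the reverse way.

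Some markers of other tissues ran in the same order, and those named here were chosen after their values were seen. Six2, known from the kidney and from other mesenchyme, was at 339.9, 113 and 651 in the control pools and 467, 109.8 and 337 in the mutant pools. Trp63, a basal cell factor of the oesophagus and skin, was at 35.4, 7.23 and 89.5 in the control pools and 32.7, 9.80 and 30.4 in the mutant pools. Myod1, a factor of skeletal muscle, was at 53.0, 13.4 and 97.4 in the control pools and 58.2, 13.7 and 58.9 in the mutant pools. All 3 were lowest in control 2 and in mutant 2 of their genotypes and highest in control 3 among controls. The lung mesenchyme gene Tbx4 was at 3652, 4491 and 3045 in the control pools and 3898, 4104 and 3924 in the mutant pools, and Wnt2, a ligand of the same tissue, at 2205, 2444 and 1535 in the control pools and 2096, 2119 and 2152 in the mutant pools, both in the reverse order among controls. Not all mesenchymal markers ran like Tbx4 and Wnt2. In the control pools, Pdgfra was at 5059, 4592 and 6248 and Prrx1 at 1026, 805 and 1436. Pdgfra, Prrx1 and Twist1 were each lowest in control 2 and highest in control 3 among controls, the order of Hoxd4 and Six2. The summed level of the 6 skeletal muscle and limb markers was 38.2 to 185 in control and 44.1 to 125 in mutant pools, and that of the 5 oesophagus and stomach markers 126 to 364 and 172 to 204. None of these 11 markers was at 0 in all pools. Their part in the Hox values was not tested.

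Xist, the RNA that coats the inactive X chromosome of female cells, was at 4599, 309 and 12989 in the control pools and 41.9, 466 and 161 in the mutant pools. Control 3 was the highest and control 2 the lowest of the control pools, the order of Hoxd4 and Six2. The mutant pools were all far below controls 1 and 3, so Xist and genotype went partly together. A fit with both cannot fully separate them. With log2 Xist as a covariate, the log2 fold change was -0.017 for Hoxb5, -0.15 for Hoxb6, 0.36 for Hoxc4, 0.12 for Hoxc5 and 0.053 for Hoxd4, so the direction of these 5 was not kept. Hoxa2, Hoxa3, Hoxa4 and Hoxb4 kept an unadjusted p under 0.05 there, and Hoxa5, with 0.17, did not. Hoxb1, Hoxb3 and Hoxc4 also had an unadjusted p under 0.05 as higher there, Hoxb1 and Hoxc4 against their direction without the covariate, and Hoxd1 had one as lower.

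Summed marker levels of some tissue types also differed between genotypes. Of 18 epithelial markers, 7 fell at an adjusted p under 0.05, against 0.315% of all genes. The largest fall was in Cdh1, which codes for E-cadherin (log2 fold change -0.97 ± 0.10 SE, unadjusted p = 1.54e-06, adjusted p = 0.00728). The list was not uniform, with a median log2 fold change of -0.44. Shh was nearly level (-0.03), Nkx2-1 was at -0.25, and Krt19 alone was higher (0.44 ± 0.09 SE, adjusted p = 0.0734). The summed level of the 18 markers was 17836 to 21863 normalized counts in control and 14068 to 15212 in mutant pools. Of 12 mesenchymal markers, Col3a1, a fibrillar collagen gene, rose (log2 fold change 0.26 ± 0.05 SE, unadjusted p = 2.03e-04, adjusted p = 0.047), and their sum was 65457 to 69314 in control and 75518 to 76971 in mutant pools. Wt1, which marks mesothelium, rose by 0.31 (adjusted p = 0.0496). At an unadjusted p under 0.05, 6 of 8 endothelial and 3 of 5 smooth muscle markers were higher, and 2 of 6 neural crest and 2 of 6 cardiac markers were lower. Over all genes, 6.67% were higher and 6.89% lower at this threshold, and these lists are short. The part of these tissues in the Hox values was not tested. The median log2 fold change of the mesenchymal list was 0.12, and that of the 29 Hox genes 0.17. When libraries were scaled to the mesenchymal list, the median of all genes shifted to -0.14 and that of the Hox genes to 0.04. This scaling lowered the log2 fold change of every gene alike, with lower calls over all genes going from 54 to 949. Hoxa4 was then at 0.14 and Hoxa5 at 0.20, and no Hox gene had an unadjusted p under 0.05 in the higher direction. Hoxc5, Hoxc6, Hoxd1, Hoxd3 and Hoxd4 had one in the lower direction (5 of 29). With this scaling, 27.8% of all genes had one in either direction.

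The genes that act with or on Hox genes were nearly level. Of the 9 cofactor genes of the Pbx, Meis and Pknox families, none passed the adjusted threshold, the median log2 fold change was 0.07, and only Meis1 had an unadjusted p under 0.05. Meis1 was at 4716, 4796 and 4759 in the control pools and 5252, 5416 and 5232 in the mutant pools (log2 fold change 0.16 ± 0.04 SE, unadjusted p = 0.00151, adjusted p = 0.107). Of 18 Polycomb genes, which keep Hox clusters silent, 2 were higher at an unadjusted p under 0.05, Rbbp7 among them (log2 fold change 0.12), and none was lower, with a median log2 fold change of -0.0018. Of 10 trithorax-type genes, which maintain active expression, Dot1l and Rbbp5 were lower (log2 fold changes -0.16 and -0.13) and none was higher. Over all genes, 6.67% were higher and 6.89% lower at an unadjusted p under 0.05. Of 9 regulators that act upstream of Hox clusters, Cdx2 and Cdx4 were listed at 0 in all pools, and of the 7 tested, only Rarg, a retinoic acid receptor gene, had an unadjusted p under 0.05. Rarg was at 2034, 2002 and 1971 in the control pools and 2457, 2112 and 2281 in the mutant pools (log2 fold change 0.19 ± 0.06 SE, unadjusted p = 0.00756, adjusted p = 0.185).

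Genes just outside the clusters gave a local comparison. Of 13 tested neighbours, 1 had an unadjusted p under 0.05, Snx10 at the HoxA side (log2 fold change -0.32 ± 0.14 SE, unadjusted p = 0.0415, adjusted p = 0.342), and the median log2 fold change was -0.0041. Over all genes, 13.6% had an unadjusted p under 0.05, and the lists given here are too short to be told from that share. Evx2, the homeobox gene beside Hoxd13, was at 10.8, 21.7 and 7.95 in the control pools and 18.4, 18.6 and 34.4 in the mutant pools (log2 fold change 0.83). Of the 22 noncoding genes listed for the clusters, 11 were in the table under a known symbol, 5 of these were at 0 throughout and 4 were tested, with none at an unadjusted p under 0.05. Hotair, the noncoding gene of HoxC, was at 0 in every pool, and Hoxa11as, the antisense gene of Hoxa11, was likewise at 0.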

How the data were processed

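Lungs of 3 control and 3 mutant pools at the 11.5dpc stage were measured by RNA-seq. Per the labels, the authors processed reads with Trim Galore, HISAT2, featureCounts and DESeq2 on mm10; versions and annotation are not given in the sources used here. They deposited 1 table of normalized counts (a signal: reads over a size factor), with a log2 fold change, its error, a score, p-values and a mean from their own comparison, which were not used. In every library, 100% of values were whole multiples of 1 step within 0.1 read. The step of control pool 3, 0.994, was not accepted as a size factor. The reads of the other 5 libraries entered edgeR 4.0.16 as an alternative, which is thus also a fit without control pool 3. The main test was limma 3.58.1 in R 4.3.3 with an intensity trend on log2(value + 1), for the 17168 genes at 1 or more in 3 or more libraries, with the Benjamini-Hochberg correction. Tests were checked on simulated data. Exon lengths, coordinates and overlaps came from GENCODE M21 (GRCm38). Ratios used exact permutation tests (SciPy 1.17.1). Values by pool were printed for group 5 genes, genes with a mean of at least 500, the 3 highest per kilobase in each cluster, the highest of groups 9 to 13 in each cluster and those with an unadjusted p under 0.05. Members and lists were chosen with earlier results of these data known. That pools came from separate litters is not stated, and p-values measure the spread between these pools. Values of a few single genes are not reported here.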

Additional observations from a re-analysis of the deposited data

How the results depend on the processing

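The alternatives were a pseudocount of 0.1, no filter, a minimum of 10 in every library, upper-quartile scaling, scaling to the mesenchyme list, limma without trend, a replicate block, log2 Xist as a covariate, edgeR on 5 libraries and leaving out each pool. Without the mesenchyme scaling, 14 alternatives remain: in these Hoxa2, Hoxa3, Hoxa4 and Hoxb4 had an unadjusted p under 0.05 in 14 and Hoxa5 in 12. Hox genes with a higher level at adjusted p under 0.05 numbered 0 in limma, 3 in edgeR and 0 to 2 with a pool left out, and lower ones 0, 0 and 0 to 1. At an unadjusted p, higher Hox genes numbered 0 after mesenchyme scaling and 5 to 11 with a pool left out. Lower ones numbered 1 with the pseudocount of 0.1, without trend and with Xist, 0 with the minimum of 10 and in edgeR, 5 after mesenchyme scaling, 4 with the replicate block, and 0 to 5 with a pool left out. The share of all genes at an unadjusted p under 0.05 was 27.8% after mesenchyme scaling and 9.2% to 18.7% in the other alternatives. Over all genes, 32 higher and 54 lower calls became 15 and 949 after mesenchyme scaling, 2 and 6 without trend and 202 and 343 in edgeR. The Xist covariate gave 17 higher calls. Leaving out a pool gave 1 to 183 higher and 0 to 285 lower calls. For all genes, these upper ends came without control 3, and the cause was not tested. Genes of groups 9 to 13 had few reads, which limits what depth can show for them.

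Directions reversed for Hoxb3 after mesenchyme scaling (-0.063), and for Hoxb6 (-0.024) and Hoxc4 (0.11) in edgeR. With the Xist covariate they reversed for Hoxb5 (-0.017), Hoxb6 (-0.15), Hoxc4 (0.36), Hoxc5 (0.12) and Hoxd4 (0.053). With a pool left out, the log2 fold change ran from -0.019 to 0.44 for Hoxb6 and from -0.22 to 0.13 for Hoxc4. The Hoxa5 to Hoxb5 ratio difference ran from -0.023, without control 2, to 0.13, and that of Hoxa5 to Hoxc5 from 0.39, without control 3, to 1.13. The share of paralog group 5 was 34.4% with no length correction and 35.3% with principal transcripts, a setting chosen after seeing the data. Same-numbered control and mutant pools had correlations of -0.0189, 0.101 and 0.0307 in their deviations from group means, so the numbers were not taken as pairs. With the replicate block, 7 higher and 4 lower Hox genes had an unadjusted p under 0.05, against 13.5% of all genes. No Hox gene had an adjusted one, and 71 genes in all were called.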
